A study of Mus musculus with 2 samples.

Results

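Aggrecan (Acan) and 9 other genes of the cartilage-like and fibrous matrix were examined in mouse sarcoma cells depleted of the circular RNA circCsnk1g3. The set comprised the large aggregating proteoglycans Acan and Vcan, the link protein Hapln1, the small leucine-rich proteoglycans Dcn, Bgn, Lum and Fmod, the basement membrane proteoglycan Hspg2, the matrix adaptor Comp and the transcription factor Sox9, and was taken by gene symbol from the count table. All 10 genes were found among its 25509 genes, and 7 of them had at least 10 counts in 1 library or both, as had 12941 genes in all. The set was chosen on measured values, because Acan was the largest decrease among well-expressed genes (mean of at least 10 CPM, the counts brought to a common library size with TMM factors). The difference of Acan is therefore given as a description and supports nothing by itself.

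Poly(A) RNA was sequenced from 1 library of cells transduced with shcircCsnk1g3 and 1 library of cells transduced with shCTR, the control hairpin that the article calls shSCR. In both groups the cells were C57BL/6 soft-tissue sarcoma cells (p53-/-Ccne1+), that is, mesenchymal stem cells without p53 in which Ccne1 was overexpressed from a retrovirus. They had grown as subcutaneous tumors in primary recipients, were seeded in the lungs of secondary recipients, and were transduced after they had been recovered from lung foci. Both hairpins were carried by a lentiviral vector with puromycin selection, so that the control cells share the gene loss, the transgene, the passage through mice and the selection. With 1 library per hairpin, differences between cultures and an effect of the hairpin cannot be told apart, no test was possible, and no p-value is given.

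Proteoglycans are core proteins that carry long sulfated sugar chains. Aggrecan and versican bind hyaluronan at one end, a contact that link proteins such as Hapln1 stabilise, and carry many chondroitin sulfate chains. Decorin, biglycan, lumican and fibromodulin are small proteins with leucine-rich repeats that bind collagen fibrils and growth factors, whereas perlecan, the product of Hspg2, carries heparan sulfate. Aggrecan is best known as the proteoglycan that lets cartilage resist compression, and Sox9 is the transcription factor that drives its gene in chondrocytes. Versican, decorin and biglycan are common products of fibroblasts and other mesenchymal cells.

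The libraries held 38792143 (shcircCsnk1g3) and 42709996 (shCTR) counts, with TMM factors of 1.01 and 0.989. Counts of Csnk1g3, whose linear transcript is what poly(A) RNA reports, were 2159 and 2411, a log2 fold change of -0.05 (-0.14 to 0.03). The circRNA lacks a poly(A) tail, so its depletion could not be checked here. Counts of Ccne1 were 893 and 963, and those of Trp53 3841 and 4334. The Trp53 counts do not show which exons remain. Among 10 mesenchymal markers 9 had at least 10 counts, led by Vim with 225330 and 282350, while Thy1 had 0 and 1. Of 10 leukocyte markers, 6 were at 3 counts or fewer in both libraries, Ptprc among them with 1 and 0. The 2 with enough counts were lower in shcircCsnk1g3, as Acan was, with 87 and 155 counts for Cd68 (-0.71, -1.12 to -0.34) and 45 and 102 for Laptm5 (-1.04, -1.61 to -0.55). The summed level of the leukocyte list was 3.67 and 6.34 CPM, and its part in the results was not tested. Of the endothelial list 5 of 8 genes and of the lung epithelial list 6 of 9 were likewise at 3 counts or fewer, Kdr and Sftpc at 0 among them, with sums of 0.510 and 0.710 CPM and of 0.434 and 0.615 CPM.

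Promoter sequences are shown for Acan, Vcan and Bgn, which of the 7 genes with enough counts had the largest differences in either direction. Each is the 250 bases before the RefSeq start (GRCm38.p6), read 5′ to 3′ along the gene's strand. Capitals mark the GC box GGGCGG and the box CCAAT on either strand, so that CCGCCC and ATTGG are the same motifs on the opposite strand, and adjacent capitals may hold overlapping matches. The windows are chr7:79052976-79053225 (plus strand) for Acan, chr13:89742513-89742762 (minus strand) for Vcan and chrX:73483351-73483600 (plus strand) for Bgn.
Acan: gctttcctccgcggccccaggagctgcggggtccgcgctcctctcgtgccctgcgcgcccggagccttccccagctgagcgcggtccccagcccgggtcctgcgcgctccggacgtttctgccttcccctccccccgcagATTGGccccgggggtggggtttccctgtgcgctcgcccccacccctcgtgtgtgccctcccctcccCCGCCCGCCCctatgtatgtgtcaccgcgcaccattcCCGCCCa
Vcan: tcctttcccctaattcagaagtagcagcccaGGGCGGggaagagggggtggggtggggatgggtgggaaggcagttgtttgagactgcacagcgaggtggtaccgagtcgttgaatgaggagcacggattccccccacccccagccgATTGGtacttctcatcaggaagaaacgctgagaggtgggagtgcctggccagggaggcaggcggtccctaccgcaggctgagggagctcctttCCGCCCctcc
Bgn: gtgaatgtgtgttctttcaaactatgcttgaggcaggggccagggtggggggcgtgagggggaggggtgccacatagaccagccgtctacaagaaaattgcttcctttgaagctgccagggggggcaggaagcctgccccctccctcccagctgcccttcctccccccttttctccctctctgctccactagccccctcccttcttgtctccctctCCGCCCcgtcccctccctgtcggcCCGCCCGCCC

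A window was given for 6 of the 10 genes (Acan, Vcan, Hapln1, Bgn, Fmod and Hspg2), and Dcn, Lum, Comp and Sox9 had none. The SOX motifs ACAAAG and ACAATG, searched on both strands, were in none of these 6 windows, whereas 16.5% and 10.7% of 32851 promoter windows of the same length held them and 25.2% held either. The absence says only that these letters are not in this window. The Acan window held 3 GC boxes and 1 CCAAT box, the Vcan window 2 and 1, and the Bgn window 3 and 0. GC boxes were in 32.7% and CCAAT boxes in 33.8% of all windows. The Acan window was also rich in G and C, at 74.4% with 26 CpG dinucleotides, against medians of 52.4% and 6 over all windows. Vcan had 62.4% and 10, and Bgn 64.4% and 7. The search for GC and CCAAT boxes was added after the sequences had been seen.

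Acan, the lectican of cartilage, was 5.82-fold lower in the shcircCsnk1g3 library (5.21 to 6.51). Its count was 372 in shcircCsnk1g3 and 2331 in shCTR, or 9.49 and 55.2 CPM. The log2 fold change was -2.53 (-2.70 to -2.38). It compares TMM-scaled CPM after adding a prior count of 2, which damps the differences of genes with few counts. For a single gene, the range in parentheses is here and below the 95% Clopper-Pearson interval of the ratio of both counts. For a difference between genes, it is the 95% interval of the conditional odds ratio of their counts in both libraries. Either range reflects counting error alone. The shcircCsnk1g3 library held 17.2% of the control level. Acan (ENSMUSG00000030607) is on chromosome 7 (79053483 to 79115099, plus strand, GRCm38, as for all gene coordinates here) and overlaps no other annotated gene. In a bulk library, fewer Acan-expressing cells and less Acan RNA per cell cannot be told apart.

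Among the 9084 well-expressed genes the next decreases after Acan were those of Gemin4, a component of the SMN complex, with a log2 fold change of -2.02 (208 and 918 counts), and of Apln, the secreted peptide apelin, with -1.75 (369 and 1345 counts). These were also the nearest to Acan in size, at distances of 0.51 and 0.78 on the log2 scale, followed by Tgfbr2, a TGF-beta receptor, with -1.59 (2013 and 6544 counts), Dazap2 with -1.59 (2666 and 8629) and Sod3, the extracellular superoxide dismutase, with -1.55 (656 and 2072). Likeness here rests on 1 difference between 2 libraries. The largest increase among these genes was 1.89, for Rtp4. Another 659 genes had a control count within 10% of that of Acan, and their log2 fold changes ran from -1.20 (Rab15) to 1.27 (Mt2) with a median of -0.00. Of these genes, 3 were at least 2-fold lower and 3 at least 2-fold higher. That Acan lies below them follows from its choice as the largest decrease.

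**Figure D1:**
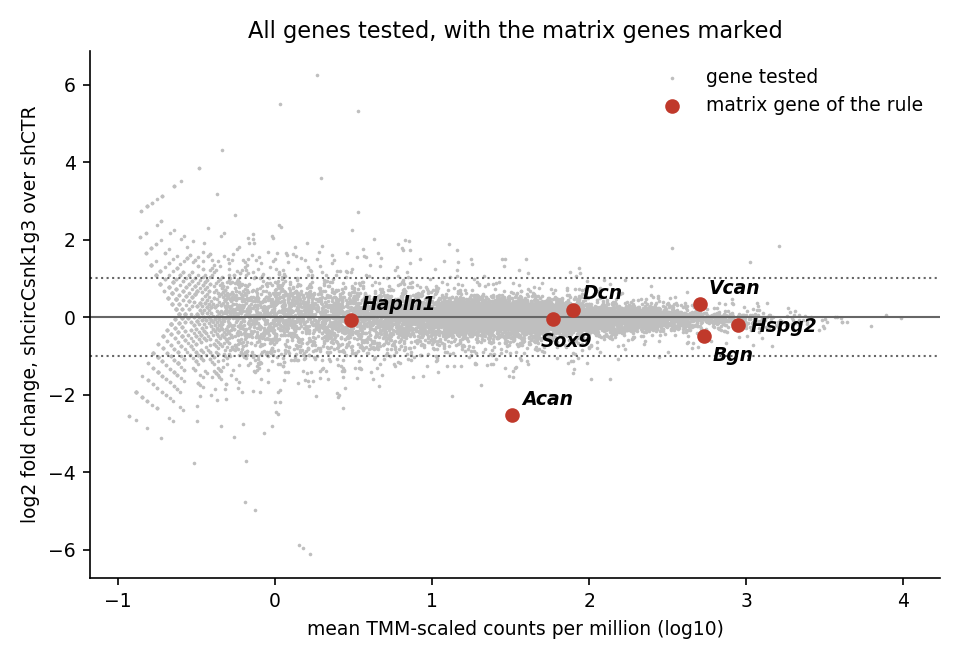
Log2 fold change of every gene tested (shcircCsnk1g3 over shCTR, vertical axis) against its mean TMM-scaled CPM (log10, horizontal axis), with grey points for the 12941 genes, red points for the 7 matrix genes and dotted lines at a 2-fold difference. Acan, at -2.53, is the only red point outside the dotted lines, and the scatter of grey points widens at low levels.

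Vcan, the lectican of loose connective tissue, was on the other side. It had 22187 counts in shcircCsnk1g3 and 18967 in shCTR (566 and 449 CPM), a log2 fold change of 0.33 (0.31 to 0.36). The difference between the log2 fold changes of Acan and Vcan was -2.87 (-3.04 to -2.71). Hapln1, the link protein that fastens either lectican to hyaluronan, had 117 and 133 counts (2.98 and 3.15 CPM) and a log2 fold change of -0.08 (-0.45 to 0.29), whose interval includes 0. Acan was lower relative to Hapln1 by -2.46 (-2.87 to -2.06) on the log2 scale, and Vcan was higher relative to it by 0.41 (0.04 to 0.78). Both Vcan (ENSMUSG00000021614, 89655312 to 89742509, minus strand) and Hapln1 (ENSMUSG00000021613, 89539796 to 89611652, plus strand) lie on chromosome 13, 43.7 kb apart. Vcan overlaps an antisense gene (Gm4117) and a pseudogene, and Hapln1 a pseudogene. The libraries were made with a stranded kit, but whether strand was used in counting is not given in the sources used here.

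Sox9, the transcription factor of chondrocytes, differed little between the libraries while Acan differed 5.82-fold. It had 2256 counts in shcircCsnk1g3 and 2535 in shCTR (57.5 and 60.0 CPM), a log2 fold change of -0.06 (-0.14 to 0.02). The difference in log2 fold change between Acan and Sox9 was -2.48 (-2.66 to -2.30). Sox9 and Hapln1 could not be separated (0.02, -0.36 to 0.40), the wide interval coming with the low count of Hapln1. Sox9 (ENSMUSG00000000567) is on chromosome 11 (112782224 to 112787760, plus strand).

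Of the small leucine-rich proteoglycans, decorin and biglycan were abundant and stood on opposite sides of 0. Dcn (ENSMUSG00000019929, chromosome 10, 97479609 to 97518143) had 3286 counts in shcircCsnk1g3 and 3094 in shCTR (83.8 and 73.2 CPM), a log2 fold change of 0.19 (0.12 to 0.27). Bgn (ENSMUSG00000031375, chromosome X, 73483602 to 73495933) had 17471 and 26561 counts (446 and 629 CPM), a log2 fold change of -0.50 (-0.52 to -0.47). Bgn was lower relative to Dcn by -0.69 (-0.77 to -0.61), although the 2 proteins belong to the same class of the family. Lumican and fibromodulin, which regulate fibril diameter, were close to the limit of detection. Lum had 9 counts in shcircCsnk1g3 and 0 in shCTR, at least 3.23-fold higher when the control is set at the floor of 3 counts, while the lower limit of its counting interval was 2.13-fold. Fmod had 9 and 2 counts, a ratio of 4.85 with a counting interval from 1.0 to 46.1. The floor corresponds to 0.0765 CPM in shcircCsnk1g3 and 0.0710 CPM in shCTR.

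Hspg2, which encodes the basement membrane proteoglycan perlecan, had 31972 counts in shcircCsnk1g3 and 40016 in shCTR (815 and 947 CPM), a log2 fold change of -0.22 (-0.24 to -0.19). The gene (ENSMUSG00000028763, chromosome 4, 137468769 to 137570630) overlaps a miRNA gene, Mir7018. Corrected for GC content and length, its log2 fold change was -0.09. Comp, a pentameric adaptor of cartilage and tendon matrix, had 1 and 0 counts, at or under the floor in both libraries, so that no fold is given. Thus 3 of the 10 genes (Lum, Fmod and Comp) were too low to be compared in the same way as the other 7.

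**Figure D2:**
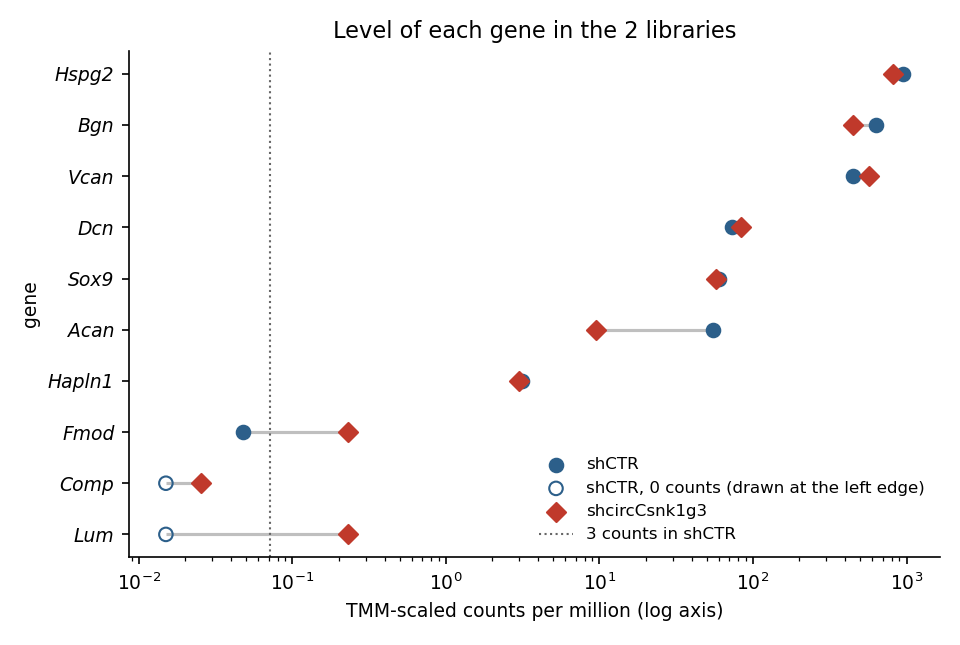
TMM-scaled CPM (log horizontal axis) of the 10 genes in the shcircCsnk1g3 library (red diamonds) and the shCTR library (blue circles), 1 library each, with open circles for 0 counts and a dotted line at 3 counts in shCTR. Acan has the widest gap of the 7 genes well above the dotted line, from 55.2 to 9.49 CPM, and Lum, Fmod and Comp lie near the line or left of it.

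Of the 7 genes with enough counts, 1 (Acan) was at least 2-fold lower and 0 were at least 2-fold higher, beside 2.55% and 2.13% of all genes tested. Since the choice of the set rests on Acan, nothing is read from this count. Low counts inflate such shares, and among genes with at least 200 summed counts they were 0.741% lower and 0.563% higher, and with at least 1000 summed counts 0.413% and 0.252%. The interval lay below 0 for 3 genes (Acan, Bgn and Hspg2) and above 0 for 2 (Vcan and Dcn), whereas it did so for 28.2% and 26.9% of all genes. At this depth an interval that leaves out 0 is thus common and compares 2 libraries rather than 2 conditions. The median of the 7 genes was -0.08, against 0.00 for all genes tested. Of all genes tested, 0.155% had a lower log2 fold change than Acan, 7.80% a lower one than Bgn and 19.8% a lower one than Hspg2, while Dcn and Vcan stood above 78.6% and 88.2%.

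**Figure D3:**
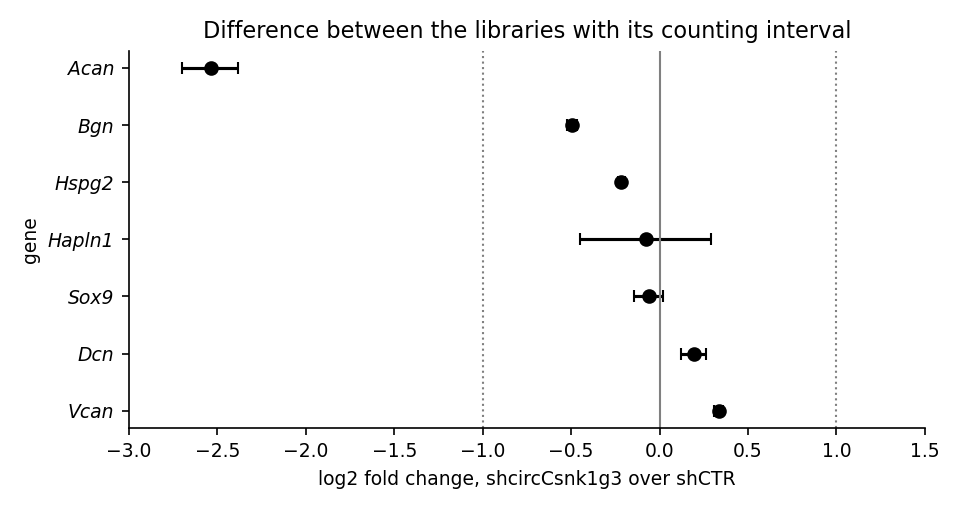
Log2 fold change (shcircCsnk1g3 over shCTR, horizontal axis) of the 7 genes with enough counts, as points with 95% counting intervals that do not include variation between cultures, and with dotted lines at a 2-fold difference. Acan lies at -2.53, the other 6 genes lie between -0.50 and 0.33, and the intervals of Hapln1 and Sox9 cross 0.

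Levels of different genes were compared per length, as TMM-scaled CPM per kilobase of merged exons. On this scale the order in the control was Bgn (103), Hspg2 (66.2), Vcan (31.0), Sox9 (14.5), Dcn (12.5), Acan (7.39) and Hapln1 (0.533). In the shcircCsnk1g3 library it was Bgn (73.0), Hspg2 (57.0), Vcan (39.1), Dcn (14.4), Sox9 (13.9), Acan (1.27) and Hapln1 (0.506), so that Dcn and Sox9, which are neighbours in both, changed places. Without replicates, the spread that would separate neighbours is unknown. The level of Bgn depends on the length used, being 235.8 in the control with the longest transcript in place of merged exons, and Sox9 and Dcn also change places in the control on that scale.

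The makeup of the summed per-length level of the 10 genes, 199.4 in shcircCsnk1g3 and 235.3 in shCTR, differed between the libraries. The share of Vcan was 19.6% in shcircCsnk1g3 and 13.2% in shCTR, that of Dcn 7.20% and 5.33%, and that of Acan 0.637% and 3.14%. Bgn took 36.6% and 43.8%, and Hspg2 28.6% and 28.1%. With the longest transcripts, the shares were 15% and 9.59% for Vcan, 5.88% and 4.14% for Dcn, 0.424% and 1.99% for Acan, 55.0% and 62.6% for Bgn, and 18.9% and 17.7% for Hspg2. For each Acan transcript there were, by this measure, 30.8 Vcan transcripts in shcircCsnk1g3 and 4.20 in shCTR. Relative to the link protein, Acan stood at 2.51 and 13.8 per Hapln1, and Vcan at 77.4 and 58.2. Bgn per Dcn was 5.09 in shcircCsnk1g3 and 8.22 in shCTR, or 9.36 and 15.1 with the longest transcripts.

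In mice each lectican gene has a link protein gene close by, and both Acan and its neighbours were read for differences. Hapln3 lies on the opposite strand (chromosome 7, 79115102 to 79131018), so that the 3′ ends of both genes are 2 bases apart, and had 0 counts in both libraries. Among the genes whose start lay within 500 kb of that of Acan, 17 were in the table and 9 had enough counts. Of these 9, 0 were past 2-fold in either direction. Over all genes tested, 2.55% were at least 2-fold lower and 2.13% higher, so that nothing is read from this count. The median of the 9 neighbours was 0.03, and they ran from -0.61 (-0.79 to -0.44) for Isg20, an exonuclease gene with 430 and 710 counts, to 0.34 (0.16 to 0.52) for Mrpl46, a mitochondrial ribosomal protein gene with 559 and 475. Mfge8, the first gene past Hapln3 and a secreted glycoprotein, had -0.31 (-0.34 to -0.27).

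**Figure D4:**
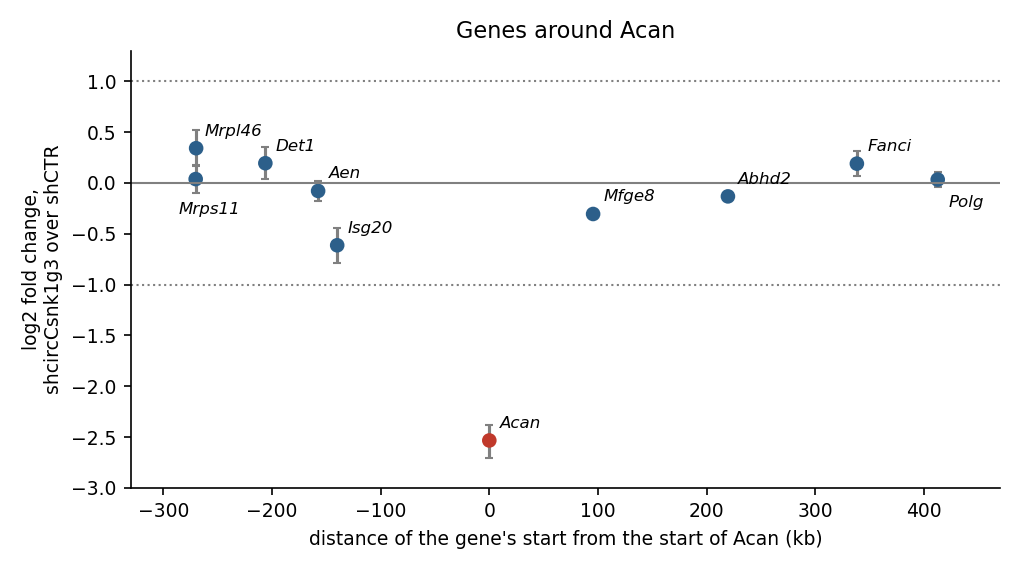
Log2 fold change (shcircCsnk1g3 over shCTR, vertical axis) of Acan (red) and of the 9 genes around it with enough counts (blue), with 95% counting intervals, against the distance of each start from that of Acan in kb. Acan lies at -2.53, and its neighbours between -0.61 and 0.34, inside the dotted lines at a 2-fold difference.

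The other genes of proteoglycan biology were taken from 11 lists of 157 genes, of which 106 had enough counts. Of these, 65 were lower and 41 higher in shcircCsnk1g3, with a median of -0.09, against 49.6% lower and a median of 0.00 for all genes tested. At least 2-fold lower were 8 genes (7.55%) and at least 2-fold higher 1 (0.943%), against 2.55% and 2.13% of all genes. Most of the 8 had few counts, since with at least 200 summed counts 2 of 83 genes were lower and 1 was higher (2.41% and 1.2%, against 0.741% and 0.563% of all genes of that depth). The 2 were Podnl1 and Mmp3 and the 1 was Sulf2.

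Among other lecticans and link proteins, 2 of 5 had enough counts. Hapln4, a link protein of the nervous system, had 1063 and 1229 counts (-0.10, -0.22 to 0.02). Bcan, the brain lectican, had 45 and 26 (0.85, 0.17 to 1.65), and Ncan, the other lectican of brain, was at 0 in both libraries. Of the other small leucine-rich proteoglycans 8 of 14 had enough counts, and 7 of the 8 had intervals that include 0. Their median was 0.04, but -0.50 with at least 200 summed counts and -0.06 after the GC and length correction, so that no direction is given for the list. Podnl1, podocan-like 1, was the exception with 930 counts in shcircCsnk1g3 and 2089 in shCTR, a log2 fold change of -1.06 (-1.17 to -0.95). Tsku, tsukushi, had 0.07.

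Heparan sulfate and other cell surface proteoglycans were mixed, with 16 of 22 tested, 10 lower and 6 higher (median -0.04). Of all genes tested, 49.6% were lower. Cspg4, the proteoglycan NG2, had 15833 and 13207 counts and a log2 fold change of 0.37, and Agrn, the basement membrane proteoglycan agrin, also had 0.37, on the opposite side from Hspg2. Gpc4, a glypican, had -0.76 (101 and 186 counts) and Sdc3, a syndecan, -0.64 (175 and 295). Past 2-fold were Prg4, the joint lubricant lubricin (1 and 10 counts), and Srgn, the proteoglycan of granules in blood cells (6 and 20), both with few counts. Among the thrombospondins, the family of Comp, and the matrilins, which bind to it in cartilage matrix, Thbs1 had 42428 and 76914 counts (-0.75, -0.77 to -0.73), Thbs3 had -0.39, Thbs2 had 51495 and 42799 (0.37), and Matn2 had 0.02.

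Genes that define cartilage cells were largely absent, and 14 of the 26 on that list had at most 3 counts in both libraries. Col2a1, the main collagen of cartilage, had 1 count in shcircCsnk1g3 and 10 in shCTR, and Col9a1, Col9a2, Matn1, Cnmd and Snorc, all products of cartilage, had 0 in both. Of the partners of Sox9, Sox5 had 906 and 788 counts (0.31, 0.17 to 0.45) and Sox6 had 0 and 2. Col11a1, a minor fibrillar collagen, had 1071 and 1663 (-0.53), and Trps1, a transcription factor of the growth plate, 0.40. The median over the 7 genes with enough counts was -0.33, and 0.26 with at least 200 summed counts, so that no direction is given for the list.

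Hyaluronan, the chain to which aggrecan and versican bind, is made at the cell membrane by 3 synthases. Has2 had 41 counts in shcircCsnk1g3 and 139 in shCTR (-1.61, -2.19 to -1.14), Has1 had 111 and 68 (0.80, 0.37 to 1.27), and Has3 had 70 and 68 (0.15, -0.35 to 0.65). Has2 is overlapped by the antisense gene Has2os. The synthases thus stood on different sides, all at low counts, with Has2 on the side of Acan and with Has1 on that of Vcan. The receptor Cd44 had 22843 and 27196 counts (-0.14). Of the proteins that degrade hyaluronan or bring about its breakdown, Hyal1 (0.32) and Cemip (0.28) were higher, and Cemip2 (-0.19) was lower. For the whole list of 15 genes, 12 had enough counts, with a median of -0.11. Past 2-fold was 1 gene, Has2, beside 2.55% lower and 2.13% higher of all genes tested.

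Tested were 7 enzymes of the chain linker, 14 of chondroitin and dermatan sulfate and 15 of heparan sulfate. Of those that build the chains of these proteoglycans, 1 was past 2-fold, the heparan sulfate 3-sulfotransferase Hs3st1. It had 2 counts in shcircCsnk1g3 and 11 in shCTR (counting interval -5.57 to -0.16 on the log2 scale). The endosulfatase Sulf2, which trims chains and is described below, was also past 2-fold (1.36). Over all genes tested, 2.55% were at least 2-fold lower and 2.13% higher. All 7 enzymes of the linker between chain and core protein had enough counts and lay between -0.26 (Fam20b, the xylose kinase) and 0.23 (B3gat3, a glucuronosyltransferase). Pxylp1, the phosphatase opposite Fam20b, had -0.22, and Xylt1, which starts the linker, 0.07. Of the chondroitin and dermatan sulfate enzymes 14 of 16 were tested, 10 lower and 4 higher, while 49.6% of all genes tested were lower. Among these enzymes 0 were past 2-fold, and the interval lay below 0 for 8 (57.1%) and above it for 1 (7.14%, against 26.9% of all genes). Among lists with at least 7 genes tested the share below 0 varied from 12.5% of the other small leucine-rich proteoglycans, 28.6% of the linker enzymes and 30.8% of the genes that supply sulfate and sugars to 55.6% of the mesenchymal markers and 60% of the heparan sulfate enzymes. It was 28.2% over all genes, which include genes with few counts and wide intervals. The lowest were Csgalnact1, which starts chondroitin chains, with 627 and 1055 counts (-0.64, -0.79 to -0.50), and the chondroitin 4-sulfotransferases Chst11 with 4758 and 7259 (-0.50, -0.55 to -0.45) and Chst12 with 710 and 1082 (-0.50). Ust, the uronyl 2-sulfotransferase, was higher with 1567 and 1168 (0.53, 0.42 to 0.64), and Chst7 had 0.10.

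Of the heparan sulfate enzymes 15 of 22 were tested, with a median of -0.13. The 2 endosulfatases that trim the chain outside the cell were on opposite sides. Sulf1 had 146 counts in shcircCsnk1g3 and 282 in shCTR (-0.83, -1.14 to -0.55), and Sulf2 had 1019 and 426 (1.36, 1.2 to 1.53). Sulf2 overlaps Ncoa3 on the other strand, which had 1952 and 2124 counts. The 6-sulfotransferases, whose sulfate groups the endosulfatases remove, also differed, with 0.39 for Hs6st1 and -0.49 for Hs6st2. Among the 13 of 15 tested genes that supply sulfate and sugars, Slc26a2, the sulfate transporter of cartilage, had 25 and 65 counts (-1.21, -2.0 to -0.59), and the others lay near 0, from -0.18 for Ugdh and -0.13 for Slc35d1 to 0.14 for Slc35b3 and 0.17 for Slc35a2 among those with at least 200 summed counts.

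The proteases that cut aggrecan and versican were also mixed. Adamts4 and Adamts5, the main aggrecanases, had -0.13 (-0.27 to 0.02) and 0.11 (-0.13 to 0.35), both with intervals that include 0, and Adamts5 had 294 counts in each library. Adamts1, a versican-cutting protease, had 2795 counts in shcircCsnk1g3 and 1828 in shCTR (0.72, 0.63 to 0.81), and Adamts9, of the same family, 2554 and 4191 (-0.61, -0.68 to -0.54). Mmp3, stromelysin 1, had 61 and 159 counts (-1.25, -1.73 to -0.84), and the inhibitor Timp3 had 0.34. The plot of the gene lists shows each list's genes and median.

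**Figure D5:**
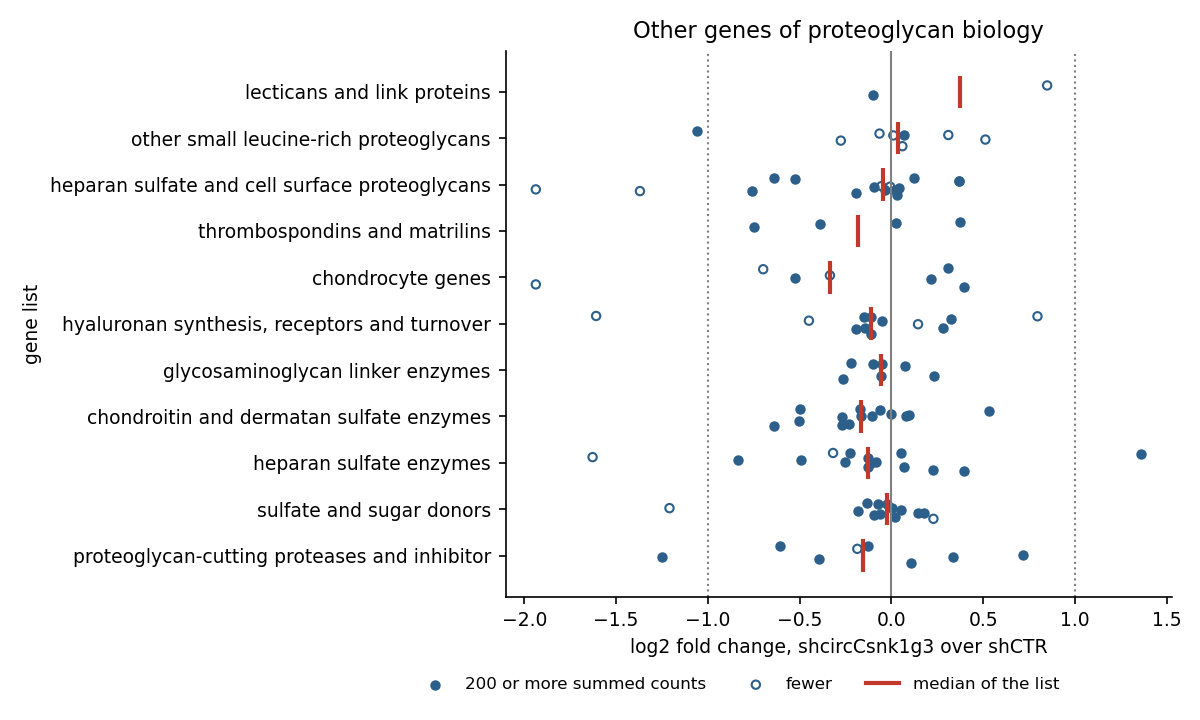
Log2 fold change (shcircCsnk1g3 over shCTR, horizontal axis) of the genes with enough counts in each of the 11 lists, with filled points for at least 200 summed counts, open points for fewer, and red bars for the median of each list. The list medians lie between -0.33 and 0.37, and of the 9 points beyond the dotted lines at a 2-fold difference 6 are open.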

How the data were processed

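Both deposited tables hold 1 shcircCsnk1g3 and 1 shCTR library of poly(A) RNA (stranded kit). Reads were aligned by the authors with STAR (GRCm38), and the expected counts per gene from RSEM were deposited as whole numbers without normalization, so that reads matching several genes were divided among them. The other table the authors deposited gives TMM-scaled CPM made with edgeR for 11624 genes, each column being the count column times a constant. It served as an alternative. The 92 spike-in rows, at 0, were left out.

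Genes needed at least 10 counts in 1 library or both to be tested, and TMM factors were computed on these with edgeR 4.0.16 under R 4.3.3. The log2 fold change used a prior count of 2, which shrinks genes with few counts. Intervals (95%, Clopper-Pearson, scipy 1.17.1, python 3.11.15) cover counting error only, and reads without molecular identifiers are not independent molecules. Those of differences between genes are intervals of the conditional odds ratio, at the same level and with the same limit. Genes at 3 counts or fewer were taken as at the floor. There was no test, since each hairpin had 1 library. The steps were tested on simulated counts.

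Coordinates and lengths are from GENCODE M21 (25251 of 25509 identifiers found), the release used by the authors not being given in the sources used here. Promoters are from RefSeq. Protein features, also planned, were not analysed here. The genes and lists were chosen with earlier results of these data known. Named are all 10 genes of the set, up to 2 increases and 2 decreases of each list among genes with at least 200 summed counts, the 5 well-expressed genes nearest to Acan, and the 3 largest decreases. Other genes named were chosen after their values were seen. A result for 1 gene under this rule is not reported here.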

Additional observations from a re-analysis of the deposited data

How the results depend on the processing

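No paired analysis was possible because neither hairpin had a second library, and for the same reason no library could be left out. The log2 fold change of Acan lay between -2.56 and -2.50 over 7 settings (TMM, DESeq2 1.42.0 size factors, total counts, prior counts of 0.5 and 10, the deposited table, and a correction for GC content and length), and Acan was the 1 gene of the set at least 2-fold lower in each of 12 settings, a 4-fold threshold included. With total counts Vcan was at 0.36, Bgn at -0.47 and Hspg2 at -0.18. With the GC and length correction Vcan was at 0.27 and Hspg2 at -0.09. With the longest transcript, the control level per length was 36.1 for Vcan and 235.8 for Bgn. Without a count filter the median of the set was 0.067, with 2 genes (Lum and Fmod) at least 2-fold higher, 4 higher genes in the other lists and a thrombospondin and matrilin median of -0.39 in place of -0.18. In the other lists, the 8 genes at least 2-fold lower became 4 with a prior count of 10, with the deposited table or with at least 50 summed counts, 2 with at least 200, 15 at 1.5-fold and 0 at 4-fold. The 1 higher became 4 at 1.5-fold and 0 at 4-fold. The lectican and link protein median of 0.37 was -0.10 with the deposited table and with at least 200 summed counts, which leave Hapln4 alone, and the chondrocyte median of -0.33 was -0.059 with at least 50 and 0.26 with at least 200 summed counts. Stricter filters leave fewer genes tested, and beyond that the cause was not tested. Among all genes, 330 were at least 2-fold lower and 275 higher, against 171 and 150 with a prior count of 10, 174 and 109 in the deposited table, 623 and 732 without a filter, 157 and 132 with at least 50 summed counts, 79 and 60 with at least 200, 817 and 698 at 1.5-fold, and 52 and 49 at 4-fold. Depth limits Lum, Fmod and Comp.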
